A study of Mus musculus with 21 samples.

Results

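Lysosomal hydrolases and membrane proteins were followed as a set of 33 genes, chosen by name from the deposited count table, which lists 24263 gene symbols; all 33 were in it. The list was made up of 7 cysteine, aspartic and serine proteases, 8 glycosidases or sulfatases, 6 lipid enzymes, activators and transporters, 7 membrane proteins (a channel among them), 3 subunits or accessory proteins of the proton pump, and 2 transcription factors of the lysosomal gene programme. The study exposed mouse cell lines to acrylamide (ACR), a small electrophilic neurotoxicant, and sequenced polyadenylated RNA in 21 libraries, 3 for each of 7 groups. The BV2 line, an immortalised microglial line labelled with the strain C57BL/6, received 1 mM ACR (BV2_ACR) or the vehicle phosphate-buffered saline (BV2_PBS) for 24 h. The 1C11NE line, labelled with the strain 129, came from 1C11 stem cells that had been driven along a noradrenergic programme for 12 days with dibutyryl cAMP, dimethyl sulfoxide and a cyclohexanecarboxylic acid. It received 1 mM ACR (ACR), medium conditioned by vehicle-treated BV2 with (PBS-CM+ACR) or without (PBS-CM) added 1 mM ACR, medium conditioned by ACR-treated BV2 (ACR-CM), or vehicle alone (PBS), also for 24 h. Whether the ACR-CM medium still held ACR is not stated in the labels, and the lines were kept in different base media.

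Lysosomes are acidified by a rotary proton pump, the vacuolar ATPase, and digest proteins, glycans and lipids with hydrolases that reach them mostly through the mannose 6-phosphate pathway. Their limiting membrane is lined by heavily glycosylated proteins such as LAMP1 and LAMP2, and carries transporters and channels that release the products. The factors TFEB and TFE3 bind E-boxes in the promoters of many lysosomal genes, and their activity is set largely by phosphorylation and movement into the nucleus. Microglia, the phagocytes of the brain, are rich in lysosomes.

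Library totals ran between 2762287 and 7391991 counts. Levels are given as CPM, counts scaled to the library total times a TMM scaling factor, on one scale for all 21 libraries. The factors were 0.698 to 0.749 in BV2_PBS, 0.786 to 0.9 in BV2_ACR and 1.037 to 1.183 in 1C11NE. Levels set side by side between these groups, and ratios of summed levels, therefore depend on this scaling. Levels were not divided by transcript length, so no level is compared between genes. Nothing in the labels states that the 3 libraries of a group came from separate cultures, and p-values then measure the spread between these libraries, which may be technical. In bulk RNA, a change in every cell and a change in the mix of cells cannot be told apart. Microglial markers had summed levels of 3857 ± 339 CPM in BV2_ACR, against 4907 ± 370 CPM in BV2_PBS (SD, n = 3), and 5.30 to 13.6 CPM in the 5 groups of 1C11NE. The noradrenergic label of 1C11NE was thinly backed: the 6 markers found in the table summed to 10.1 ± 1.88 CPM in PBS, with Gata3 at 6.45 CPM. In PBS, 9 pan-neuronal markers summed to 11.8 ± 1.26 CPM. By contrast, 7 stromal markers summed to 578 ± 140 CPM in ACR, against 1569 ± 231 CPM in PBS. Most of both sums was Col1a2 (520 ± 135 CPM in ACR and 1416 ± 214 CPM in PBS), and the other stromal means were also lower in ACR. Among libraries that received conditioned medium, 1 of PBS-CM (replicate 1) and 1 of PBS-CM+ACR (replicate 3) stood apart. They lay at -27.2 and -17.4 on the first principal component of the 1C11NE libraries, on the side of those that had none, while the other 7 lay between 14 and 41.1.

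Promoter sequences of 5 members discussed below are shown as examples, because TFEB and TFE3 are known for binding E-boxes. They run 250 bases before to 50 bases after the annotated start, 5′ to 3′ on the gene's strand, from RefSeq on GRCm38.p6; capitals mark CACGTG, the E-box, and TGACNNNGC, the core of the antioxidant response element, each searched on both strands; matches of the 2 motifs do not overlap in these sequences. The lines are in order Lamp1 (chr8:13158911-13159210, plus strand), Ctsd (chr7:142387778-142388077, minus strand), Atp6v1a (chr16:44139210-44139509, minus strand), Glb1 (chr9:114400828-114401127, plus strand) and Lipa (chr19:34527425-34527724, minus strand).
Lamp1: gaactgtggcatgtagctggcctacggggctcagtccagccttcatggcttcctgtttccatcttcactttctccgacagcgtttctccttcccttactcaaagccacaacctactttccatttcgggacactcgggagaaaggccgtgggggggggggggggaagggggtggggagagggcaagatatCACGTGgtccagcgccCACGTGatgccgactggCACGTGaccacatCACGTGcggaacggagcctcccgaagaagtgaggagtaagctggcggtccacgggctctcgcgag
Ctsd: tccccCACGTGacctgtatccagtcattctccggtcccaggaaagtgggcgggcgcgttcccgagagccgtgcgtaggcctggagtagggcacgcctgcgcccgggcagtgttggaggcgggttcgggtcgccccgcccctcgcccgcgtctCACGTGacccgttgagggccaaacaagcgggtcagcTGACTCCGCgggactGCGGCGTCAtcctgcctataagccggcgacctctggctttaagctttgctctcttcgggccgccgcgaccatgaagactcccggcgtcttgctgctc
Atp6v1a: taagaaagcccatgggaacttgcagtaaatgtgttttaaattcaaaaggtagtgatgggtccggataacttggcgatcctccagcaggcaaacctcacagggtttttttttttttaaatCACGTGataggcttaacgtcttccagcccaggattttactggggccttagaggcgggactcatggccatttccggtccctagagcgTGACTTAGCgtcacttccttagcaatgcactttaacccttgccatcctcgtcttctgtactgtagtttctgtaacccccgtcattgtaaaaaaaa
Glb1: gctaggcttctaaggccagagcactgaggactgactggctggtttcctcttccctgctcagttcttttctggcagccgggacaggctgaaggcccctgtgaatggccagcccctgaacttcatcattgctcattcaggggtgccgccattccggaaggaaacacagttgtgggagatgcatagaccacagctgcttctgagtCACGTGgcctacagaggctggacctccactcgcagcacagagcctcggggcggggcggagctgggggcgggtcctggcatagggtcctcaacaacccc
Lipa: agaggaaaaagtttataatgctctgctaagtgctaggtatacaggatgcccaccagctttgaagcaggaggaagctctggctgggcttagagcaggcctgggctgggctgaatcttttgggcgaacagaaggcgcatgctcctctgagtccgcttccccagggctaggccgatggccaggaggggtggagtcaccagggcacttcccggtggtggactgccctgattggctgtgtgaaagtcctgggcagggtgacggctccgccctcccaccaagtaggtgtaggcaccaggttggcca
Lamp1, with 4 E-boxes within 61 bases of the start, held the densest run of the 5, and Lipa held neither motif. The 5 do not stand for the set, as all but Lipa held at least 1 E-box. Psap, Scarb2 and Man2b1, whose rises in BV2 are given below, held 0 E-boxes, and Gaa held 1. A promoter was found for 29 of the 33 members (35 promoters in all; none for Ctsb, Ctsh, Asah1 and Npc1). At least 1 E-box was present in 12 of the 29 (41.4%), against 8.09% of the 27025 genes in the RefSeq table. The antioxidant response element core was present in 8 of the 29 (27.6%), against 14% of genes. Genes of the RefSeq table were not matched to the members in level or base content, and the gaps between these shares were not tested. These matches describe letters in a window and say nothing of binding.

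In BV2, acrylamide raised members of every enzyme class on the list, of the membrane proteins and of the proton pump. Of the 32 members tested, 17 rose in BV2_ACR over BV2_PBS and none fell, at a Benjamini-Hochberg adjusted p below 0.05 in edgeR's quasi-likelihood test. Over all 10890 genes tested, 7.17% were called higher and 9.33% lower, beside 53.1% of members called higher. The members were chosen with earlier results of these data known, and all genes were not matched to them in level. The gap between these shares is therefore described and was not tested. The median log2 fold change of the members was 0.41, against 0.03 over all genes, and 30 of the 32 values were above 0. How many of all genes had a value above 0 was not counted. At an unadjusted p below 0.05 there were 22 members, and 3243 genes in all (edgeR). Summed over the 33 members, the level was 14961 ± 434 CPM in BV2_ACR and 11416 ± 171 CPM in BV2_PBS (SD, n = 3), a ratio of 1.31. With single libraries left out, the count lay between 10 and 17, lowest without BV2_PBS replicate 1 (10) and BV2_PBS replicate 2 (11). The calls of Lipa, Psap, Atp6v1a, Gaa, Ctsd, Scarb2, Ctsb, Gla and Lamp2 held in all 6 such fits, while 8 were lost in at least 1. The highest adjusted p in those fits was 0.051 for Glb1 (without BV2_PBS replicate 1), 0.050 for Asah1 (without BV2_PBS replicate 2), 0.082 for Man2b1, 0.077 for Hexa, 0.13 for Ctsl, 0.15 for Grn, 0.19 for Atp6ap1 and 0.15 for Lamp1, all of these 6 lost without BV2_PBS replicate 1 and without BV2_PBS replicate 2. Man2b1, Ctsl, Atp6ap1 and Lamp1 were also lost without BV2_ACR replicate 2, Atp6ap1 without BV2_ACR replicate 1 and Grn without BV2_ACR replicate 3. The missing test was that of Ctsh, a cathepsin with aminopeptidase activity, which had no count in any BV2 library.

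**Figure D1:**
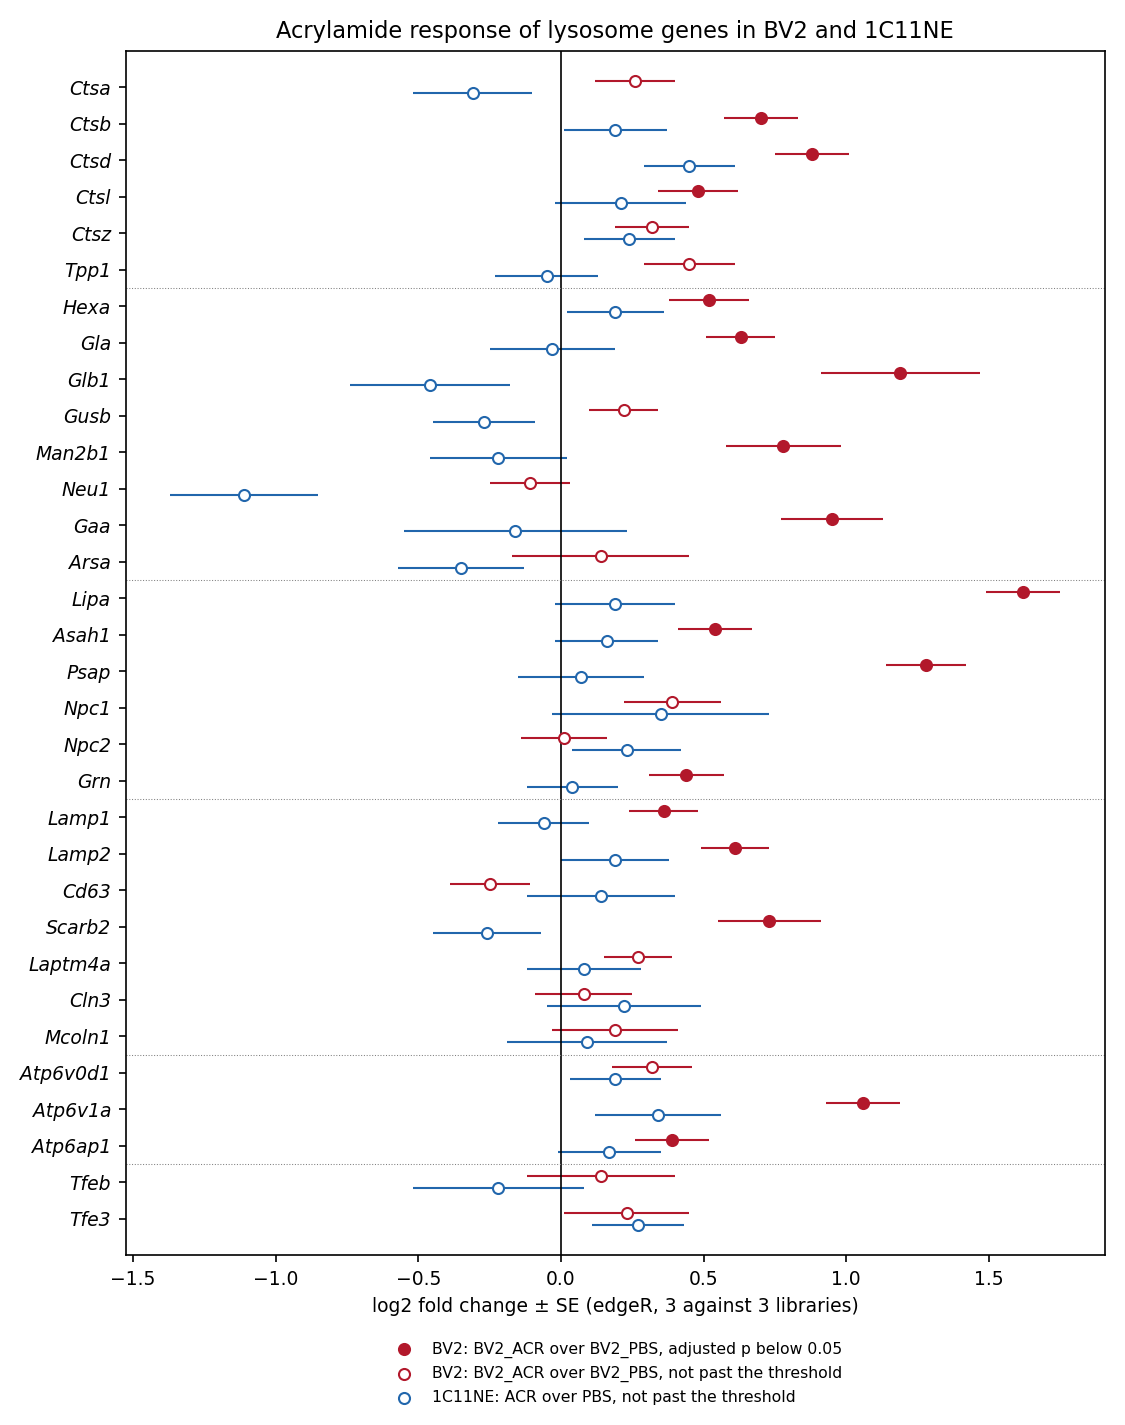
Acrylamide response of each member as a log2 fold change with its standard error (x axis, edgeR), for BV2 (BV2_ACR over BV2_PBS) and 1C11NE (ACR over PBS), 3 libraries in each group; Ctsh is left out. The BV2 values reach 1.62 for Lipa and go no lower than -0.25, while the 1C11NE values lie between -1.11 and 0.45.

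The largest rise was in lipid breakdown. Lipa, the acid lipase that hydrolyses cholesteryl esters and triglycerides in lysosomes, had 344, 374 and 367 CPM in BV2_ACR, against 122, 125 and 103 CPM in BV2_PBS. Every ACR library was thus far above every vehicle library, with a log2 fold change of 1.62 ± 0.13 (SE; 3.08-fold; adjusted p = 1.4e-07, edgeR). Psap, the precursor of the saposins that present sphingolipids to their hydrolases, had 1102, 925 and 1058 CPM in BV2_ACR and 390, 414 and 458 CPM in BV2_PBS. It rose 2.42-fold (log2 1.28 ± 0.14, adjusted p = 8.3e-06, edgeR), again with no overlap of the groups. Asah1, the acid ceramidase, and Grn, whose product progranulin is cleaved to granulins in lysosomes, rose by log2 values of 0.54 ± 0.13 and 0.44 ± 0.13. The cholesterol exporters of the lysosome did not pass the test: Npc1 had a log2 fold change of 0.39 ± 0.17 (adjusted p = 0.12) and Npc2 one of 0.01 ± 0.15 (95% interval -0.31 to 0.34).

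Of the glycosidases and sulfatase, 5 of 8 rose in BV2. Glb1, the acid beta-galactosidase, was at low levels of 19.1, 11.5 and 22.7 CPM in BV2_ACR and 5.44, 8.75 and 9.08 CPM in BV2_PBS. The groups did not overlap, and the log2 fold change was 1.19 ± 0.28 (2.28-fold; adjusted p = 0.0066, edgeR). Gaa, the acid alpha-glucosidase that degrades glycogen, had 279, 268 and 272 CPM in BV2_ACR, against 111, 105 and 204 CPM in BV2_PBS, where replicate 3 stood well above the other two. Its log2 fold change was 0.95 ± 0.18 (adjusted p = 0.0014). Man2b1, the lysosomal alpha-mannosidase, had 37.5, 47.0 and 41.1 CPM in BV2_ACR and 18.9, 20.4 and 32.7 CPM in BV2_PBS, a rise of 1.72-fold (log2 0.78 ± 0.20, adjusted p = 0.011). The same vehicle library was the highest of its group for both genes, and still below every ACR library. Gla, the alpha-galactosidase A, and Hexa, the alpha subunit of beta-hexosaminidase, rose by log2 values of 0.63 ± 0.12 and 0.52 ± 0.14. The other 3 were not called: Gusb, the beta-glucuronidase (log2 0.22 ± 0.12), Arsa, the arylsulfatase A (0.14 ± 0.31), and Neu1, the lysosomal sialidase (-0.11 ± 0.14).

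Among the proteases, 3 of the 6 tested rose in BV2. Ctsd, the aspartic protease cathepsin D, had 872, 835 and 877 CPM in BV2_ACR, against 476, 429 and 486 CPM in BV2_PBS. Its replicates were tight, and the log2 fold change of 0.88 ± 0.13 amounted to 1.84-fold (adjusted p = 0.00017, edgeR). Ctsb, the cysteine protease cathepsin B, rose by log2 0.70 ± 0.13, and Ctsl, cathepsin L, by 0.48 ± 0.14. Values for the other 3 were also above 0 but missed the threshold: Tpp1, the tripeptidyl peptidase (0.45 ± 0.16, adjusted p = 0.066), Ctsz, the carboxypeptidase cathepsin Z (0.32 ± 0.13), and Ctsa, the protective protein of sialidase and beta-galactosidase (0.26 ± 0.14).

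Of the membrane proteins and channel, 3 of 7 rose in BV2, and by less than the leading hydrolases. Lamp1, the abundant membrane glycoprotein used as a lysosome marker, had 351, 385 and 335 CPM in BV2_ACR and 286, 268 and 272 CPM in BV2_PBS. The groups were separate, but the log2 fold change was 0.36 ± 0.12 and its adjusted p of 0.049 sat at the threshold (edgeR). The call was lost without any single BV2_PBS library or BV2_ACR replicate 2, and adjusted p-values over the 6 fits that each left out a library lay between 0.026 and 0.15. Scarb2, the receptor that carries beta-glucocerebrosidase to lysosomes, rose by log2 0.73 ± 0.18, and Lamp2, needed for fusion with autophagosomes, by 0.61 ± 0.12. The transmembrane protein Laptm4a (0.27 ± 0.12), the calcium channel Mcoln1 (0.19 ± 0.22) and the membrane protein Cln3 (0.08 ± 0.17) were not called. Cd63, a tetraspanin of late endosomes and lysosomes, had the lowest value of the set at -0.25 ± 0.14 (95% interval -0.56 to 0.05).

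The proton pump members all had values above 0 in BV2. Atp6v1a, the catalytic subunit of the pump's cytosolic domain, had 177, 198 and 197 CPM in BV2_ACR, against 94.2, 96.9 and 80.9 CPM in BV2_PBS. It rose 2.08-fold without overlap of the groups (log2 1.06 ± 0.13, adjusted p = 2.6e-05, edgeR). The accessory protein Atp6ap1 rose by log2 0.39 ± 0.13 (adjusted p = 0.040), and the membrane-domain subunit Atp6v0d1 was not called (0.32 ± 0.14, adjusted p = 0.13).

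The transcripts of the transcription factors did not pass the test in BV2. Tfeb had 15.2, 8.95 and 10.8 CPM in BV2_ACR and 12.3, 10.0 and 9.36 CPM in BV2_PBS, and the groups overlapped (log2 0.14 ± 0.26, 95% interval -0.41 to 0.68). Tfe3 had 19.1, 15 and 18.2 CPM in BV2_ACR and 12.0, 13.3 and 18.7 CPM in BV2_PBS, also overlapping (0.23 ± 0.22, 95% interval -0.23 to 0.70). Both intervals leave room for changes as large as those of Lamp1 or Hexa. Of the members with a matched promoter, an E-box was present in 7 of the 15 called higher in BV2 (Atp6v1a, Ctsd, Ctsl, Gaa, Gla, Glb1 and Lamp1) and in 5 of the 14 not called (Arsa, Atp6v0d1, Cln3, Ctsa and Mcoln1).

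**Figure D2:**
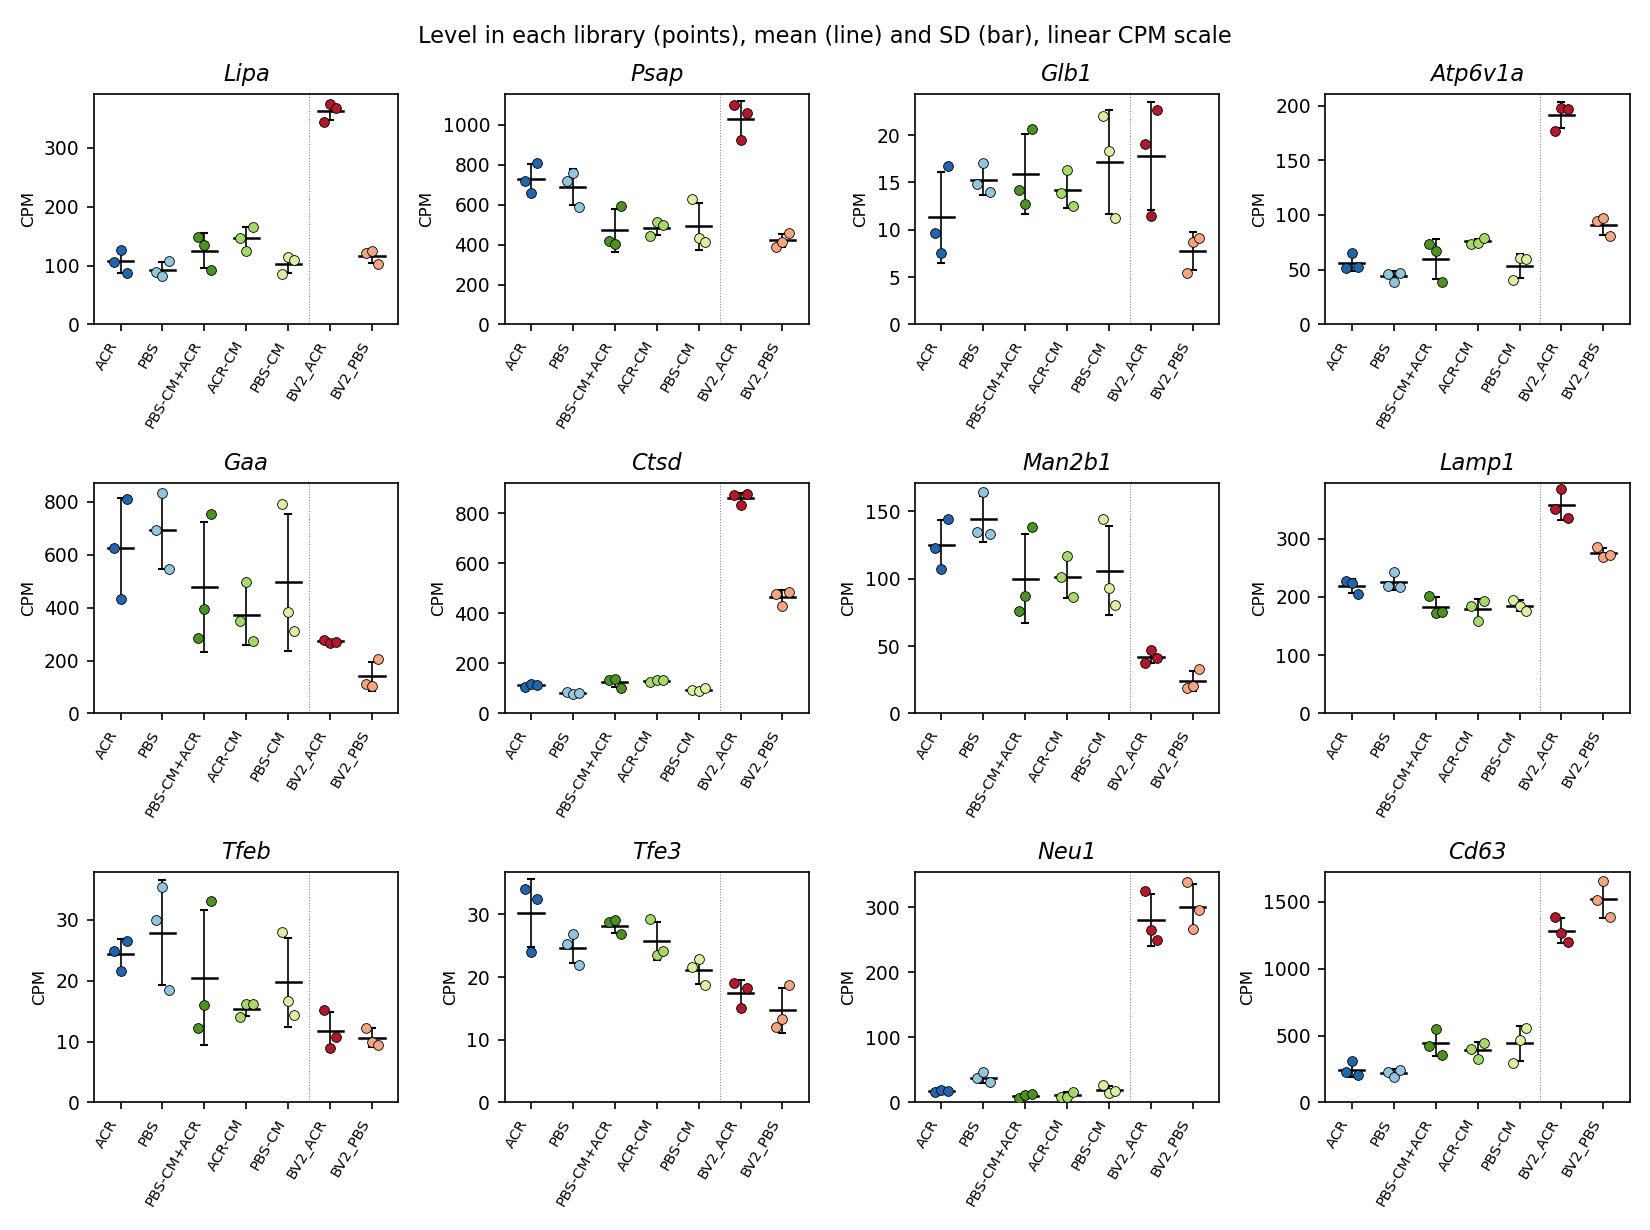
Level in each library (points, CPM on a linear axis from 0) with the group mean (line) and SD (bar), in all 7 groups. The genes are the members with the largest rises and Tfeb, Tfe3, Lamp1, Neu1 and Cd63. Lipa lies at 344 to 374 CPM in BV2_ACR and at 165 CPM or less in every other library, whereas Tfeb and Tfe3 overlap between BV2_ACR and BV2_PBS.

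In 1C11NE the same dose and time of acrylamide changed no member past the threshold: 0 of 33 were called in ACR over PBS (edgeR), with 1.18% of the 12550 genes tested called. At an unadjusted p below 0.05 there were 2 members, and 1500 genes in all. The median log2 fold change of the members was 0.09, against 0.00 over all genes. Standard errors were larger than in BV2, with a median of 0.21 over 32 members (without Ctsh), against 0.14 in BV2, so the counts of calls in the lines are not on an equal footing. In a joint fit of all 21 libraries with one spread, chosen after seeing the data, 10 members were called in BV2 and 1, Neu1, in 1C11NE. The summed level was 5103 ± 367 CPM in ACR and 4845 ± 337 CPM in PBS. Of the 32 intervals, 31 ended below a log2 value of 1. The member median in BV2 was 0.41, so this bound says little about rises of that size.

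None of the leading members of the BV2 response passed the test in 1C11NE, and their values lay on both sides of 0. Lipa had 106, 127 and 87.6 CPM in ACR, against 89.0, 81.9 and 107 CPM in PBS, overlapping groups with a log2 fold change of 0.19 ± 0.21 (95% interval -0.26 to 0.65). Psap had 718, 660 and 811 CPM in ACR and 717, 759 and 587 CPM in PBS (0.07 ± 0.22, interval -0.40 to 0.54). Both intervals end below the rise measured in BV2. Glb1 had 9.64, 7.57 and 16.7 CPM in ACR, against 14.8, 17.1 and 14 CPM in PBS, with overlapping groups and a value below 0 that was not called (-0.46 ± 0.28, interval -1.06 to 0.13). Gaa (-0.16 ± 0.39), Man2b1 (-0.22 ± 0.24) and Lamp1 (-0.06 ± 0.16) likewise had values below 0 and were not called. Atp6v1a had 51.3, 65.1 and 52.5 CPM in ACR and 45.7, 39.1 and 47.3 CPM in PBS. Every ACR library was above every PBS library for this gene, but the log2 fold change of 0.34 ± 0.22 did not pass the test (interval -0.11 to 0.80).

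Ctsd and Neu1 were the 2 members with an unadjusted p below 0.05 in 1C11NE. Ctsd had 107, 118 and 114 CPM in ACR, against 87.4, 76.9 and 80.8 CPM in PBS, with separate groups and a log2 fold change of 0.45 ± 0.16 (adjusted p = 0.24, edgeR). Neu1, named here after its values were seen, had 16.4, 19.1 and 17.9 CPM in ACR and 37.1, 46.1 and 31.1 CPM in PBS. These groups were also separate, and the log2 fold change of -1.11 ± 0.26 gave an adjusted p of 0.0502, just over the threshold; it was past the threshold with median-of-ratios scaling, with no filter on low counts, in DESeq2 and in limma-voom, and its adjusted p was 0.067 to 0.26 with single libraries left out. Tfeb (-0.22 ± 0.30) and Tfe3 (0.27 ± 0.16) had overlapping groups. Stromal markers moved in the same comparison, as given above, and their part in these values was not tested.

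The difference between the responses, that of BV2 minus that of 1C11NE, was tested as an interaction in a fit of all 21 libraries. It was called for 2 of the 33 members, Lipa and Psap, both higher in BV2, with 0.567% of the 13569 genes tested called (0.339% higher and 0.228% lower). Lipa had a difference of 1.43 ± 0.27 on the log2 scale (2.69-fold; adjusted p = 0.013, edgeR) and Psap one of 1.21 ± 0.28 (2.31-fold; adjusted p = 0.049). The call for Psap was lost in 11 of the 12 fits that left out a library (all but that without ACR replicate 3), with a difference of 1.13 to 1.31 and an adjusted p of 0.044 to 0.13. The call for Lipa held in all 12.

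Differences that were not called ran in the same direction for most members. Of the 32 members without Ctsh, 28 had a difference above 0, with a median over the 33 of 0.42 against 0.04 over all genes. Of their 95% intervals, 12 lay above 0 and 0 below. At an unadjusted p below 0.05 there were 12 of the 33 members, and 2012 of all 13569 genes in either direction (edgeR). How many of all genes had a difference above 0 was not counted. The largest difference among the members was that of Glb1, at 1.66 ± 0.44 (adjusted p = 0.076, edgeR), a gene at low level in both lines. Gaa (1.11 ± 0.52), Man2b1 (1.01 ± 0.35), Scarb2 (1.00 ± 0.26, adjusted p = 0.075), Neu1 (1.00 ± 0.34) and Atp6v1a (0.72 ± 0.27) followed. Ctsd, with a value above 0 in both lines, had a difference of 0.43 ± 0.22, with an interval of -0.02 to 0.88. Cd63 (-0.39 ± 0.32), Npc2 (-0.21 ± 0.25), Cln3 (-0.15 ± 0.33) and Tfe3 (-0.03 ± 0.27) were the 4 with values below 0.

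**Figure D3:**
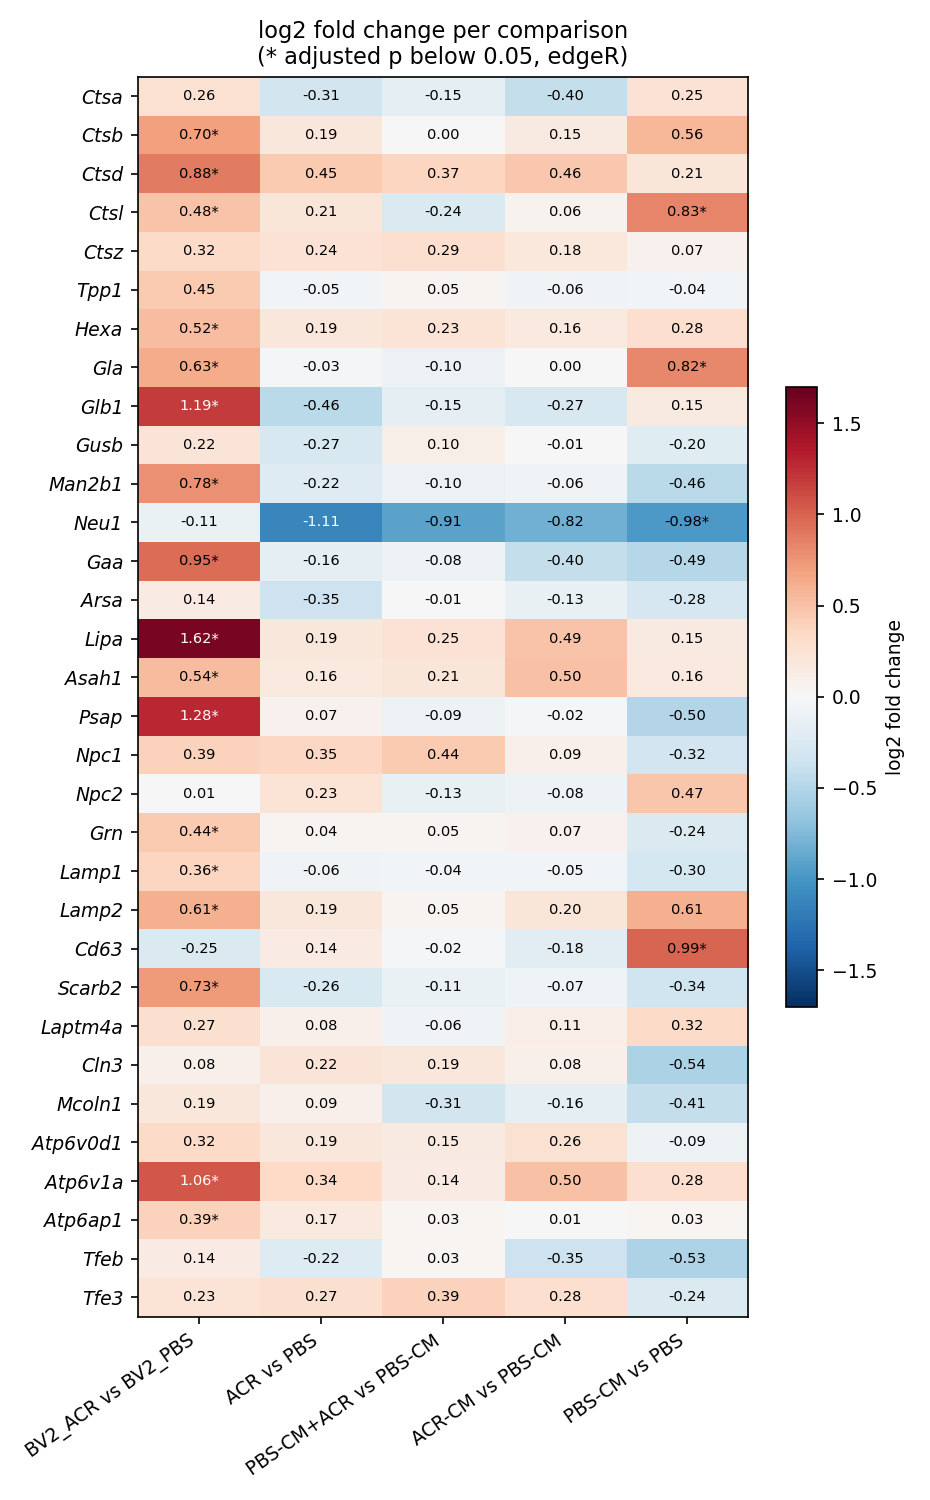
Log2 fold change of each member (rows, without Ctsh) in each comparison (columns); colour gives the value and an asterisk an adjusted p below 0.05 in edgeR. The BV2 column holds 17 asterisks and the ACR over PBS column of 1C11NE none.

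Conditioned medium was examined in 1C11NE through 3 comparisons; ACR over PBS and PBS-CM over PBS share their PBS libraries, and PBS-CM+ACR over PBS-CM and ACR-CM over PBS-CM share their PBS-CM libraries. PBS-CM over PBS called 4 of the 33 members (edgeR), 3 higher and 1 lower, with 4.55% of 12550 genes called (2.49% higher and 2.06% lower). The members' shares were 12.1% in all, 9.09% higher and 3.03% lower, and rest on these 4 genes. At an unadjusted p below 0.05 there were 8 of the 33 members and 3219 of the 12550 genes (edgeR). Cd63 had 297, 467 and 558 CPM in PBS-CM, against 230, 189 and 243 CPM in PBS, a log2 fold change of 0.99 ± 0.26 (adjusted p = 0.042). Ctsl had 225, 298 and 337 CPM in PBS-CM and 167, 150 and 163 CPM in PBS (0.83 ± 0.23, adjusted p = 0.046). Gla had 27.4, 34.5 and 35.1 CPM in PBS-CM, against 17.5, 15 and 22.8 CPM in PBS (0.82 ± 0.22, adjusted p = 0.043). In all 3 the groups were separate and PBS-CM replicate 1, which stood apart above, was the lowest of its group. Neu1 fell to 26.7, 15.2 and 16.9 CPM in PBS-CM, against the PBS values given above (-0.98 ± 0.26, adjusted p = 0.042). These 4 calls were sensitive to single libraries: 0 members were called without PBS replicate 1, PBS replicate 2, PBS-CM replicate 2 or PBS-CM replicate 3, 1 without PBS replicate 3, and 9 without PBS-CM replicate 1.

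With conditioned medium as the background, adding ACR called 0 of 33 members in PBS-CM+ACR over PBS-CM (edgeR), with 0.375% of genes called and 3 members and 1087 genes at an unadjusted p below 0.05. Medium from ACR-treated BV2 likewise called 0 of 33 in ACR-CM over PBS-CM, with 0.924% of genes called and 5 members and 1614 genes at an unadjusted p below 0.05. Member medians were 0.03 and 0.00, against -0.02 and -0.03 over all genes. Ctsd had 126, 134 and 132 CPM in ACR-CM and 135, 138 and 102 CPM in PBS-CM+ACR, against 94.9, 88.6 and 101 CPM in PBS-CM. Both sets lay above every PBS-CM library, with log2 fold changes of 0.46 ± 0.16 and 0.37 ± 0.16 that did not pass the test. Lipa had 147, 125 and 165 CPM in ACR-CM, against 85.8, 114 and 110 CPM in PBS-CM (0.49 ± 0.21, adjusted p = 0.34). Neu1 had 8.63, 8.33 and 16.1 CPM in ACR-CM and 6.96, 10.8 and 13.5 CPM in PBS-CM+ACR, below every PBS-CM library but for ACR-CM replicate 3, with values of -0.82 ± 0.28 (adjusted p = 0.21) and -0.91 ± 0.29 (adjusted p = 0.29). The library that stood apart in each group was visible in single members: Gaa had 793 CPM in PBS-CM replicate 1 beside 383 and 312 CPM in the other two, and 755 CPM in PBS-CM+ACR replicate 3 beside 287 and 394 CPM. Summed member levels lay between 4839 and 5602 CPM in the 9 libraries with conditioned medium, and the 2 that stood apart were the highest (5602 CPM in PBS-CM+ACR replicate 3 and 5440 CPM in PBS-CM replicate 1, with the next at 5231 CPM).

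The vehicle-treated lines differed in most members. In BV2_PBS over PBS, 29 of 33 were called (87.9%), 17 higher and 12 lower, beside 79.2% of all 13569 genes (36.1% higher and 43.1% lower), so a call here says little about lysosomal genes in particular. The summed level was 11416 ± 171 CPM in BV2_PBS and 4845 ± 337 CPM in PBS, a ratio of 2.36. Ctsz had 1003, 959 and 1017 CPM in BV2_PBS, against 68.4, 62.2 and 72.7 CPM in PBS (log2 fold change 3.87 ± 0.18). Gusb had 294, 289 and 288 CPM in BV2_PBS and 21.7, 24.6 and 22.5 CPM in PBS (3.66 ± 0.17). These were the largest values above 0, and Ctsl (3.08 ± 0.21) and Gla (3.00 ± 0.20) followed. Scarb2 had 26.6, 19.4 and 22 CPM in BV2_PBS, against 131, 108 and 98.5 CPM in PBS (-2.31 ± 0.19). It was lower in BV2_PBS along with Man2b1 (-2.58 ± 0.26), Gaa (-2.30 ± 0.39) and Ctsh, and Scarb2, Man2b1 and Gaa each rose with ACR in BV2. Ctsh had 0 counts in BV2_PBS and 1.64 ± 0.689 CPM in PBS, so it was at least 5.60-fold lower in BV2_PBS, with a floor of 3 counts over the group (0.294 CPM); this covers counting error only. The transcription factors were also lower in BV2_PBS, Tfeb by a log2 fold change of -1.41 ± 0.32 and Tfe3 of -0.75 ± 0.19. Lipa (0.33 ± 0.19), Lamp1 (0.29 ± 0.15), Lamp2 (-0.22 ± 0.16) and Mcoln1 (-0.12 ± 0.27) were not called. Line, strain and medium cannot be told apart in this comparison.

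**Figure D4:**
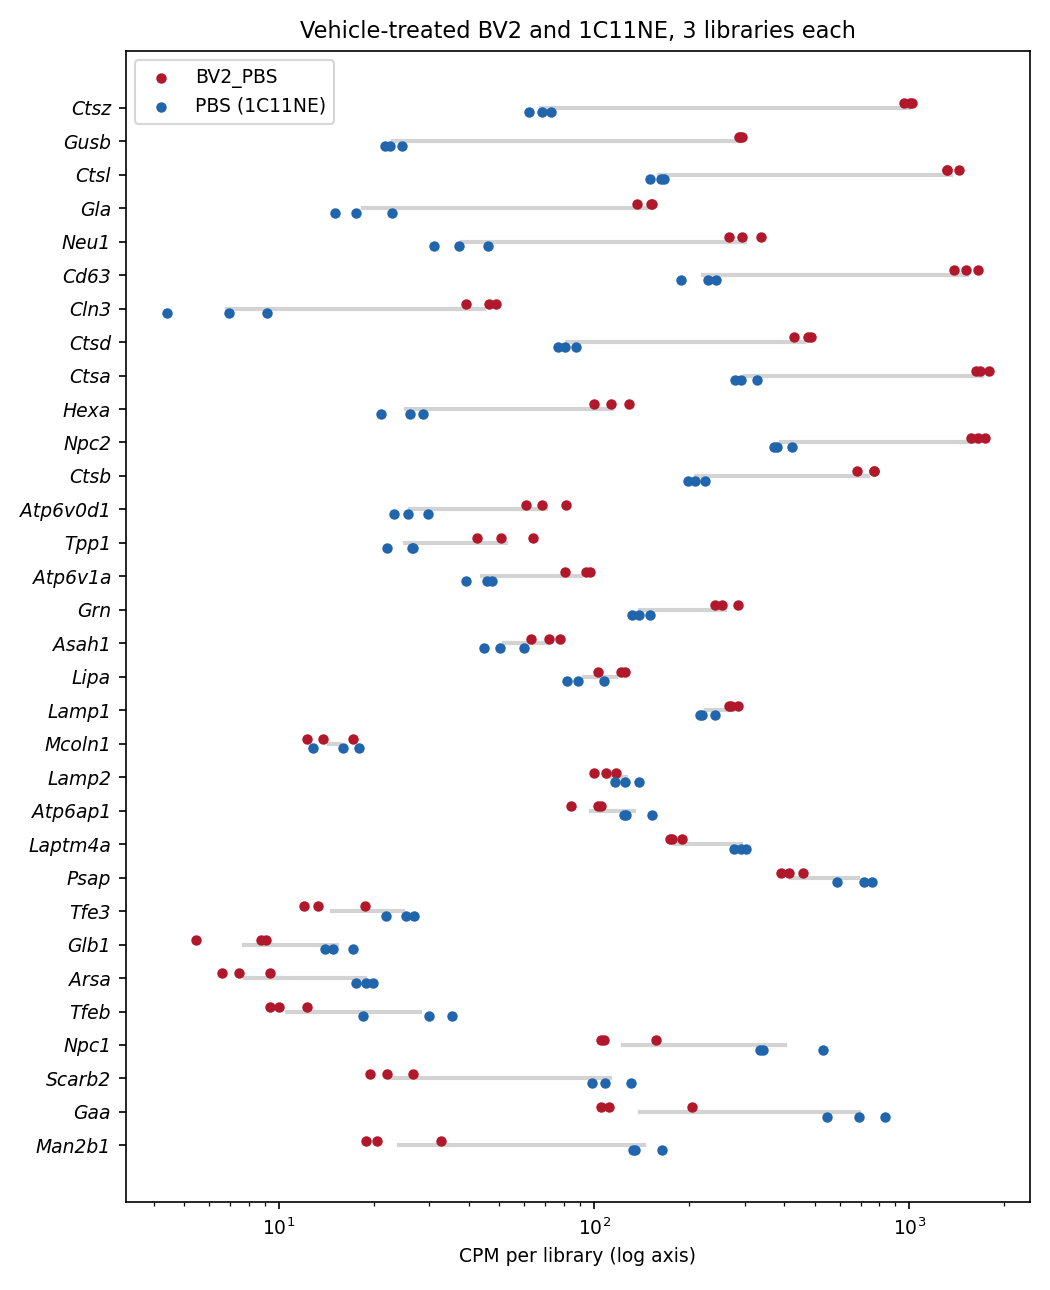
Level of each member (without Ctsh) in every library of BV2_PBS and PBS (x axis, CPM on a log scale, 3 libraries each). Ctsz and Gusb lie far to the right in BV2_PBS, Man2b1 and Gaa far to the left, and Lipa and Lamp1 close together.

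A further list of 101 lysosome and autophagy genes, all in the table, also had more higher than lower calls in BV2. This list, too, was chosen with earlier results of these data known. Of the 92 tested, 16 were called higher (17.4%, beside 7.17% of all genes) and 3 lower (3.26%, beside 9.33%), or 20.7% in either direction beside 16.5% of all genes, with a median log2 fold change of 0.18. The hydrolases and cofactors outside the 33 had 6 of 28 higher and 0 lower, the other subunits of the proton pump 2 of 13 higher and 1 lower, and autophagy genes 3 of 12 higher. Genes of signalling at the lysosome surface had 2 of 16 higher and 2 lower. Sqstm1, the autophagy receptor p62, had 126, 132 and 136 CPM in BV2_ACR, against 56.4, 59.3 and 58.6 CPM in BV2_PBS (log2 1.16 ± 0.13, adjusted p = 8.3e-06, edgeR). Lgmn, the asparaginyl endopeptidase that processes cathepsins, had 385, 362 and 458 CPM in BV2_ACR and 199, 187 and 222 CPM in BV2_PBS (0.98 ± 0.13, adjusted p = 7.1e-05). Both were separate between the groups.

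In the same list, 3 genes fell in BV2, and the values of the lowest 2 follow. Atp6v1g1, a stalk subunit of the pump, had 859, 793 and 740 CPM in BV2_ACR, against 1372, 1320 and 1204 CPM in BV2_PBS (-0.72 ± 0.14, adjusted p = 0.0016, edgeR). It thus went the opposite way to Atp6v1a, the catalytic subunit of the same pump domain. Lamtor5, part of the Ragulator complex that anchors mTORC1 signalling to the lysosome, had 595, 575 and 458 CPM in BV2_ACR and 892, 903 and 700 CPM in BV2_PBS (-0.63 ± 0.15, adjusted p = 0.0075, and 0.058 without BV2_PBS replicate 1).

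In 1C11NE, 1 of 95 genes of that list was called in ACR over PBS, and it was Sqstm1. It had 301, 268 and 319 CPM in ACR and 185, 185 and 160 CPM in PBS (0.73 ± 0.16, adjusted p = 0.038, edgeR); this call was lost in each of the 6 fits without a single library (adjusted p 0.069 to 0.15). Sqstm1 was also the 1 gene of 95 called in ACR-CM over PBS-CM (0.79 ± 0.17, adjusted p = 0.031), where the adjusted p lay between 0.050 and 0.12 without single libraries, and 0 of 95 were called in PBS-CM+ACR over PBS-CM. The acrylamide response of Sqstm1 did not differ between the lines past the threshold (0.44 ± 0.20, adjusted p = 0.30, edgeR). In PBS-CM over PBS, 4 of 95 were called (4.21%, beside 4.55% of all genes). Among them was Ctss, cathepsin S, with 2.04 ± 0.917 CPM in PBS-CM and 0 counts in PBS. It was at least 13.7-fold higher, with a floor of 3 counts over the group. Also called were Ctsc, the dipeptidyl peptidase cathepsin C (0.98 ± 0.19), and Abca2, a lysosomal lipid transporter (-1.09 ± 0.24). Of the 14 microglial markers in the table, 8 had 0 counts in PBS and 6 in PBS-CM, with sums of 5.3 and 9.08 CPM. Which cells the few counts of Ctss in PBS-CM came from was not tested. The difference between the lines was called for 1 of 100 genes (1%, beside 0.567% of all genes), Ctsf, cathepsin F. With so few calls, these counts say little about lysosome genes as a set. Ctsf had 33.1, 31.5 and 35.8 CPM in BV2_ACR, against 18.3, 21.7 and 20.9 CPM in BV2_PBS, and 3.59, 3.42 and 5.98 CPM in ACR, against 8.66, 6.87 and 7.52 CPM in PBS (difference 1.55 ± 0.32, adjusted p = 0.022). Its call was lost in 5 of 12 fits without a single library (PBS replicate 1, ACR replicates 1 and 2, BV2_PBS replicate 1 and BV2_ACR replicate 3; adjusted p up to 0.092).

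Microglial markers moved in BV2 alongside these results. Of the 12 tested, Itgam rose and Tyrobp, Fcer1g and C1qb fell in BV2_ACR (edgeR). The lower sum in BV2_ACR came from Tyrobp: the other 13 markers summed to 2244 ± 8.73 CPM in BV2_ACR and 2229 ± 43.6 CPM in BV2_PBS (SD, n = 3). Tyrobp, a signalling adaptor, averaged 1613 ± 343 CPM in BV2_ACR and 2678 ± 338 CPM in BV2_PBS, while Itgam, the integrin CD11b, averaged 191 ± 20.4 CPM in BV2_ACR and 91.1 ± 18.8 CPM in BV2_PBS (SD, n = 3). The part of such shifts in the rise of the lysosomal genes was not tested. No batch, run or date was given in the labels.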

How the data were processed

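RNA from 15 libraries of 1C11NE and 6 of BV2 was analysed from whole-number read counts per gene symbol, deposited by the authors in one table. Per the submitters' processing notes, reads were aligned with Bowtie2 2.2.5; build, annotation, counting tool and strand setting were not given in the sources used here, so overlapping genes could share reads. Library totals of 2762287 to 7391991 counts limit precision for genes at a few CPM. Counts were tested with edgeR 4.0.16 (R 4.3.3): TMM scaling, filterByExpr (minimum count 10), glmQLFit with a robust prior and glmQLFTest, adjusted by Benjamini-Hochberg over all genes of a fit. A gene was called where the adjusted value was below 0.05. All 15 libraries of 1C11NE entered one fit (12550 genes, biological coefficient of variation 0.211) and the 6 of BV2 another (10890 genes, 0.136); comparisons between lines used all 21 (13569 genes, 0.197). A standard error is the log2 fold change divided by the root of the F statistic. Levels are CPM with TMM scaling over all 21 libraries. The steps were first tested on simulated data.

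The 33 members and the other lists were chosen with earlier results of these data known. Values per library were to be given for the 7 members with the largest called rises and falls in the acrylamide comparisons or their difference, with Tfeb, Tfe3, Lamp1 and Ctsd. The rule also names the 4 largest called changes each way in the other comparisons and, among the other lysosome genes, the 2 largest each way; for some of these a fold change or group mean is given in place of each library. Alternatives were median-of-ratios scaling, no filter, DESeq2 1.42.0, limma-voom (limma 3.58.1), a replicate block, fewer or more libraries in a fit, and each library left out. Mouse promoters came from RefSeq, GRCm38.p6.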

Additional observations from a re-analysis of the deposited data

Results flagged for a closer look

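The acrylamide response differed between BV2 and 1C11NE, by the interaction test in edgeR, for 3 lysosome genes. They were 2 of the 33 members and 1 of the 100 further lysosome genes tested, beside 0.567% of all 13569 genes. The difference, BV2 minus 1C11NE, was 1.43 on the log2 scale for Lipa (adjusted p = 0.013), higher in BV2_ACR than in BV2_PBS in 3 of 3 libraries against overlapping groups in 1C11NE. It was 1.21 for Psap (adjusted p = 0.049), with the same pattern. It was 1.55 for Ctsf (adjusted p = 0.022), whose values were above 0 in BV2 (0.71 ± 0.18) and below 0 in 1C11NE (-0.84 ± 0.27, adjusted p = 0.16). Of the 12 fits that each left out a library, the call held in 12 for Lipa, in 1 for Psap and in 7 for Ctsf. With a replicate block, 0 of the 33 members were called, and Lipa had an adjusted p of 0.069 (edgeR). The lines also differ in strain and medium, which cannot be told apart from cell type.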

How the results depend on the processing

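Counts of members called are given for each setting. For ACR over PBS, 0 became 1, Neu1, with median-of-ratios scaling, no filter, DESeq2, limma-voom, only the libraries compared, a joint fit of all 21 libraries (chosen after seeing the data), or without the libraries that stood apart (1 of PBS-CM, 1 of PBS-CM+ACR); it was 0 to 0 without single libraries. For PBS-CM over PBS, 4 became 7 in DESeq2, 0 with only the libraries compared and 15 without those 2 libraries; single omissions gave 0 to 9. PBS-CM+ACR over PBS-CM and ACR-CM over PBS-CM each gave 1 with no filter and 0 to 0 without single libraries. For BV2, 17 became 10 in the joint fit, and 10 to 17 without single libraries, the lowest without BV2_PBS replicate 1 and 11 without BV2_PBS replicate 2; other settings gave 16 to 19. The difference between lines, 2 members, became 1 with median-of-ratios scaling, 4 with no filter, 4 in DESeq2, 7 without the 2 libraries that stood apart and 6 with only the libraries compared; single omissions gave 1 to 3. BV2_PBS over PBS gave 27 to 29 without single libraries. Same-numbered libraries did not deviate together in every pair (lowest correlation -0.55, in PBS-CM+ACR over PBS-CM), so the main fits did not use the numbers as a pairing. With a replicate block the counts were 0 for ACR over PBS, 0 for PBS-CM over PBS, 19 for BV2, 0 for the difference and 26 for BV2_PBS over PBS. In BV2, 3 of 3 libraries correlated best with their own number, at correlations of 0.05, 0.03 and 0.12. There the block gave 2355 calls over all genes, against 1797 as reported.

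Signs turned for members that were not called. With single libraries left out, Gaa in ACR over PBS ran between -0.39 and 0.04, Psap there between -0.02 and 0.14, Tfeb in BV2 between -0.09 and 0.30 and the difference of Tfe3 between -0.17 and 0.19; the last was 0.00 in limma-voom. DESeq2 gave no adjusted p for the difference of Ctsf. Of the other gene values, 786 kept direction and side of the threshold, 114 lost and 19 gained a call. The cause of these shifts was not tested.

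Over all genes, no filter gave 351 calls for ACR over PBS (148 as reported), 1372 for PBS-CM over PBS (571), 136 for PBS-CM+ACR over PBS-CM (47), 459 for ACR-CM over PBS-CM (116) and 234 for the difference (77). DESeq2 gave 336, 1282, 130, 305 and 547 in that order. Only the libraries compared gave 362, 210, 0, 15 and 457. Without the 2 libraries that stood apart there were 554 for ACR over PBS, 4479 for PBS-CM over PBS and 682 for the difference. The replicate block gave 309, 21 and 56 for the conditioned-medium comparisons and 32 for the difference. BV2 had 678 in the joint fit (1797 as reported). Single omissions gave 71 to 109, 106 to 3233, 11 to 73, 35 to 93, 913 to 1883 for BV2 and 25 to 100 for the difference.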
